A study of Mus musculus with 8 samples.

Results

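The genes described here are 10 of the 34844 gene names on a mouse array, genes of neutral lipolysis and of endocannabinoid synthesis and breakdown: Mgll, Abhd6, Abhd12, Faah, Daglb, Napepld, Pnpla2, Abhd5, Lipe and Lpl. They were taken by gene name, as every non-control probe that the array design names for 1 of them, which gave 18 probes on 27 spots among 55681 probes. Their signals were measured in macrophages derived in culture from the bone marrow of male C57BL/6J mice. The RNY siRNA group (n = 4 arrays) received siRNA aimed at the terminal loop of RNY, the small noncoding Y RNAs, and the control group (n = 4 arrays) received control (Ct) siRNA. The series design puts both conditions on 4 mice, so each mouse gave 1 array to each group, and both groups were transfected. The sources used here do not give the age of the mice, the siRNA sequences, the dose or the harvest time. No probe is named for a Y RNA, so the knockdown was not checked.

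Stored triglyceride is broken down in steps. Adipose triglyceride lipase (Pnpla2) with its coactivator (Abhd5) removes the first fatty acid, hormone-sensitive lipase (Lipe) acts on the diacylglycerol, and monoacylglycerol lipase (Mgll) acts on the monoacylglycerol that remains. One such monoacylglycerol, 2-arachidonoylglycerol, is an endocannabinoid, made in macrophages largely by Daglb and hydrolysed by Mgll, Abhd6 and Abhd12, while Napepld makes and Faah degrades the N-acylethanolamines such as anandamide. Lipoprotein lipase (Lpl) works outside the cell, on the triglyceride of circulating lipoproteins, and is made in quantity by macrophages.

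Each probe is an oligonucleotide of 60 bases. The last 30 bases of 11 of them are printed here, 5′ to 3′, as the scanner files give them, because Mgll, Lpl, Abhd6 and Abhd5 are the members whose probes can be set against each other below. Capitals mark AATAAA, the canonical polyadenylation signal.
Mgll A_55_P2063316: ctcaccgtAATAAAaaccacgtgcttttgg
Mgll A_55_P2114863: cagagactgtgtggaaatatcctttgaatt
Mgll A_55_P2063312: ctggacatgctggtatttgcccatgaccat
Mgll A_55_P2063311: ccagggttatccccgaggcgtttgctgtgg
Lpl A_51_P259296: gtgtagtcgtcattcaatgtgattcagaaa
Lpl A_52_P257812: cttgatttacacggaggtggacatcggaga
Abhd6 A_55_P1984675: aactttagaaataggactAATAAAgcaata
Abhd6 A_55_P2029366: gaagctgaactgaggctgttgccacagctt
Abhd5 A_51_P407165: gagctattacatttttagtgactagtcagg
Abhd5 A_55_P2177233: taggagagtctcccaatttaataatcgcct
Abhd5 A_52_P273821: gtttgacagtgatgcggaaaaagtggagaa

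AATAAA lies in the last 30 bases of 3 of the 18 member probes, those of Abhd6 (A_55_P1984675), Mgll (A_55_P2063316) and Pnpla2, and 8.164% of all probes hold it there. It stands 6 bases from the 3′ end of the Abhd6 probe and 16 bases from that of the Mgll probe. Over the full 60 bases, 5 of 18 member probes hold AATAAA, against 10.061% of all probes, and 2 of 18 hold its reverse complement TTTATT, against 3.739%. The match describes the probes only. The files give each probe's gene and its position on mm9, and whether it lies in an exon or a UTR was not analysed here.

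Levels are given as log2 of the signal minus the 75th percentile of that array, and differences are RNY siRNA minus control siRNA on that scale. A probe counts as measured on an array where the scanner software called it well above background, and it was tested where that held on at least 4 of the 8 arrays. This left 26773 probes in all and 15 of the 18 member probes, which stand for 9 of the 10 genes. The 3 others are both Faah probes and Mgll A_55_P2063311. The 10 macrophage markers examined, Adgre1, Csf1r and Cd68 among them, were well above background on all 8 arrays. Of 8 adipocyte markers, Adipoq, Lep, Slc2a4, Cidec and Plin1 were well above background on 0 arrays, Retn on 1, Cfd on 4 and Adrb3 on 8. The 8 arrays correlated at 0.988 to 0.997, all lay on 1 slide, and the RNA integrity number was 10 except for 8 on the control array of mouse 4. Slide columns 1 and 3 held the RNY arrays and columns 2 and 4 the others, which means that column and siRNA cannot be told apart. The arrays of a mouse lay side by side, in columns 3 and 4 for mice 1 and 3 and in columns 1 and 2 for mice 2 and 4. Mouse and slide position therefore cannot be told apart either. The first principal component, with 41.1% of the variance, set both arrays of mouse 1 (-41.9 with the RNY siRNA and -42.9 with the control siRNA) apart from the other 6.

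Abhd6 was selected on its siRNA difference in these arrays, and the other 9 genes were grouped with it by pathway with results of the same arrays known. The siRNA differences of the members are therefore given as a description. Over all probes, limma called 0 of 26773 between the siRNA groups at an adjusted p under 0.05, 0 with a fixed block for the mouse and 3 with a random block. At an unadjusted p under 0.05 the counts were 891, 2322 and 2424. Of the 15 member probes, 0 were called in each of the 3 fits (background 0%, 0% and 0.0112%), and 2, 4 and 3 lay under the unadjusted threshold (background 3.33%, 8.67% and 9.05%). The mean was higher with the RNY siRNA for 8 of 15 member probes, against 51.6% of all probes. The median difference was 0.01 over the member probes and 0.0036 over all probes. Differences between mice are independent of the siRNA contrast in this balanced layout, and these were tested. That independence covers a choice of genes made on the siRNA contrast. It does not cover a choice made with differences between mice in view. Signals of a bulk culture do not tell fewer cells of a type from less RNA per cell.

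The 4 mice differed most in Mgll and Lpl. Mgll, which encodes monoacylglycerol lipase, was 7.32-fold to 7.61-fold higher in mouse 3 than in mouse 1 on its 3 measured probes, and Lpl, the secreted lipoprotein lipase, was 1.95-fold and 2.09-fold higher on its 2 probes. In both genes mouse 1 was the lowest and mouse 3 the highest. The test between mice called 5 of 15 member probes, all of them in these 2 genes, against 3.04% of all probes. Probes of 1 gene were read on the same arrays and are not independent.

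Mgll A_55_P2063316 (chr6:88778292-88778351, mm9, plus strand, NM_001166251) had levels of 1.24, 3.68, 4.20 and 3.59 in mice 1 to 4 with the RNY siRNA, and 1.22, 3.50, 4.11 and 3.50 with the control siRNA. Both arrays of mouse 1 lay far below the other 6, the arrays of a mouse lay close together, and the siRNA groups overlapped. The range of its mouse means was 2.93, which only 44 of the 26773 tested probes exceeded, and the adjusted p of limma's moderated F test between mice was 0.00101. Comparing mice only within a slide row gave an adjusted p of 0.0021, and 4 of 15 member probes passed that test, against 1.46% of all probes. Within a row the mice still differ in slide columns, so this does not separate mouse from slide position.

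A_55_P2114863 (chr6:88775976-88776035), 2316 bases from the first by start position, had levels of -0.38, 2.01, 2.55 and 2.04 with the RNY siRNA and -0.32, 1.85, 2.52 and 2.01 with the control siRNA. A_55_P2063312 (chr6:88714636-88714695, NM_001166250) had levels of -1.42, 1.11, 1.63 and 1.03 with the RNY siRNA and -1.06, 0.92, 1.64 and 0.86 with the control siRNA. Mouse 1 was again lowest in each group. The adjusted p between mice was 0.00189 for the first of these probes and 0.00964 for the second, and the 3 probes correlated with each other at 0.995 to 0.999 over the 8 arrays. The deposited annotation names another transcript record for A_55_P2063312, which starts 63656 bases from A_55_P2063316, and the order of the mouse means was the same on both. On A_55_P2114863 mouse 4 (mean 2.03) stood above mouse 2 (1.93), the reverse of those probes. A_55_P2063311 (chr6:88716266-88716325), placed 1630 bases from A_55_P2063312 and with the same record, was not well above background on any of the 8 arrays.

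Between the siRNA groups, Mgll A_55_P2063316 differed by 0.09 ± 0.79 (SE, n = 4 arrays a group), with a 95% interval from -1.74 to 1.92. With the mouse as a block the interval was -0.02 to 0.21. The other measured probes differed by 0.04 and -0.0018, so the siRNA difference of each of the 3 probes was smaller than its own standard error without a block.

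**Figure D1:**
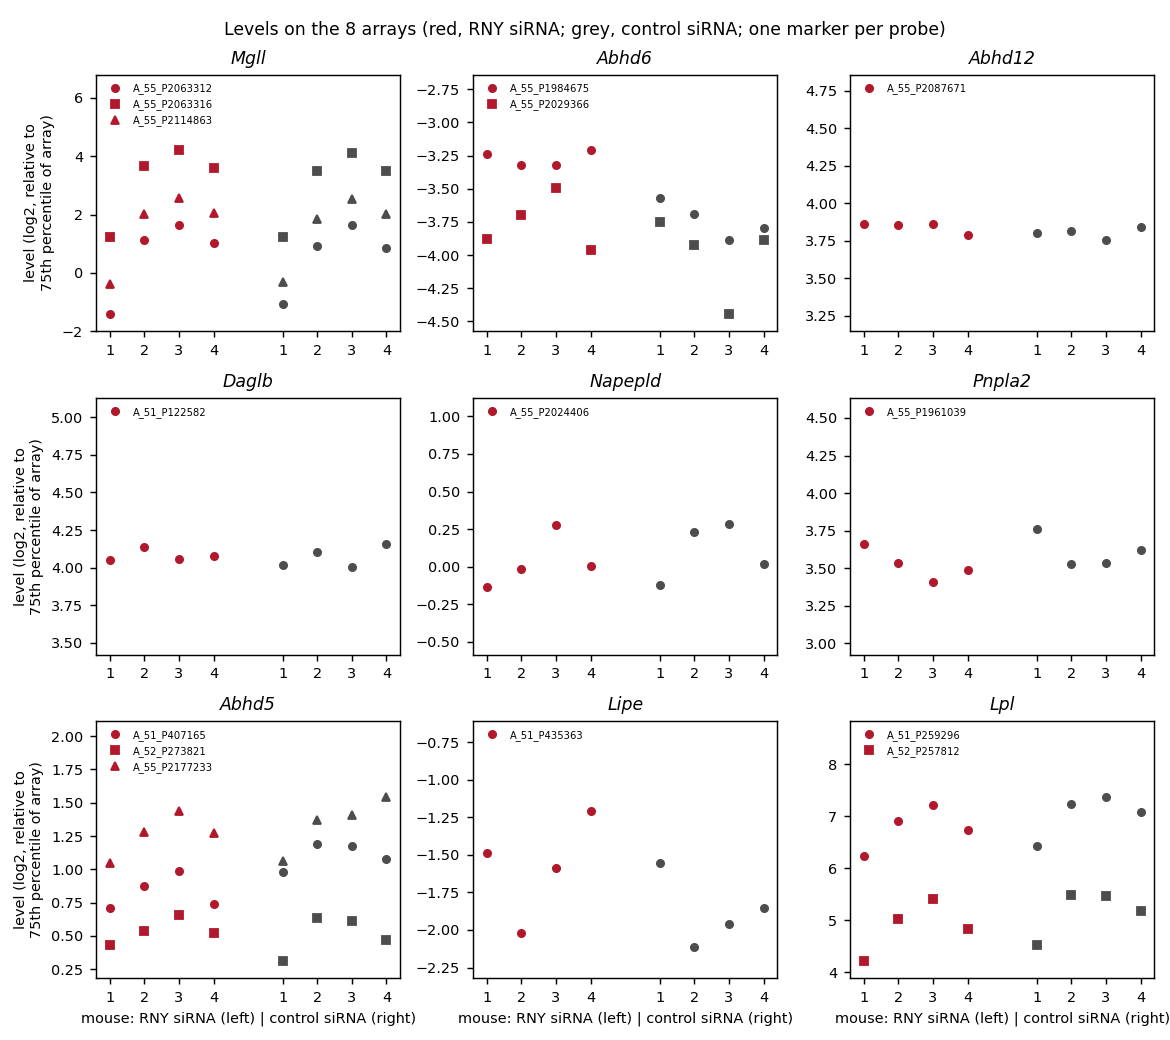
Level of each tested probe (log2, minus the 75th percentile of its array) in mice 1 to 4, with the RNY siRNA in red at the left and the control siRNA in grey at the right of each panel, 1 marker shape a probe. The y axes differ between panels. In Mgll and Lpl the array of mouse 1 is the lowest of each group, and only in Abhd6, on A_55_P1984675, do all red points lie above all grey ones.

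Lpl A_51_P259296 (chr8:71430267-71430326, mm9, plus strand, NM_008509) had levels of 6.23, 6.91, 7.22 and 6.74 with the RNY siRNA and 6.42, 7.24, 7.37 and 7.08 with the control siRNA. A_52_P257812 (chr8:71425050-71425109) had levels of 4.23, 5.03, 5.40 and 4.84 with the RNY siRNA and 4.52, 5.48, 5.47 and 5.19 with the control siRNA. On both probes mouse 1 was lowest in each group, and the siRNA groups overlapped. The range of mouse means was 0.97 on the first probe and 1.06 on the second, against a median of 0.27 over all tested probes, and 4.55% of all probes had a range over 1. The adjusted p between mice was 0.0234 and 0.0376, and within slide rows 0.034 and 0.0511. The probes correlated at 0.994 over the 8 arrays.

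Within each of the 4 mice both Lpl probes were lower with the RNY siRNA, with differences of -0.16 to -0.34 on A_51_P259296 and of -0.06 to -0.44 on A_52_P257812. The mean difference was -0.25 ± 0.26 and -0.29 ± 0.29 (SE without a block, n = 4 arrays a group). The 95% interval without a block was -0.85 to 0.34 and -0.96 to 0.39. With the mouse as a block it was -0.39 to -0.12 and -0.48 to -0.10. The difference was -0.07 on both probes without the RNY array of mouse 1, and -0.46 and -0.50 without its control array. Of the member probes, 4 were lower with the RNY siRNA in all 4 mice (background 9.02%) and 3 were higher in all 4 (background 9.78%). The 4 lower ones were both of Lpl, Abhd5 A_51_P407165 and Napepld, and the 3 higher ones were Abhd6 A_55_P1984675, Mgll A_55_P2063316 and Lipe.

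The calls between mice rested on mouse 1. Without both arrays of mouse 1, 0 of 15 member probes and 2 probes of the whole array passed, and the adjusted p was 0.24 to 0.285 for Mgll and 0.375 and 0.395 for Lpl. In the remaining mice the range of mouse means was 0.60 to 0.69 for Mgll and 0.38 and 0.42 for Lpl. Without mouse 3, 2 member probes passed, both of Mgll, and the Lpl probes had an adjusted p of 0.097 and 0.0775. Without mouse 4, 3 passed, again of Mgll, with 0.0508 and 0.0747 for Lpl. Each such test compares 3 mice in place of 4.

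Other genes and measures moved with mouse 1. The 75th percentile of the log2 signal was 9.04 on both arrays of mouse 1 and 9.19 to 9.34 on the other 6. With quantile normalization between arrays the Mgll range was 2.87 to 2.90 on the 3 probes, with an adjusted p of 0.00178 to 0.0111. Of 6 osteoclast markers 5 were measured, Calcr was above background on 0 arrays, and the test between mice called Ctsk, the collagen-degrading cathepsin K (adjusted p = 0.000665), Mmp9, a gelatinase (0.00608), and Acp5, tartrate-resistant acid phosphatase (0.0093). Dcstamp and Ocstamp were measured but not called between mice. The summed linear level of the 6, in units of the array's 75th percentile, was 11.5, 39.1, 60.3 and 47.8 in mice 1 to 4 with the RNY siRNA. With the control siRNA it was 13.9, 51.6, 74.0 and 61.4. Mouse 1 was the lowest in each group, and the sum was lower with the RNY siRNA in each mouse. The mean was lower with the RNY siRNA for 5 of 5 measured markers (51.6% of all probes were higher), and 0 were called between the siRNA groups. Of 6 dendritic cell markers 3 were measured. Itgax, the integrin CD11c, was called (0.00296) and was lowest in mouse 1. Ccr7 (0.0617) and Siglech (0.528) were not called, and Siglech was highest in mouse 1. The sum over the 6 was 97.9 in mouse 1 and 89.9 to 93.5 in the other mice with the RNY siRNA. With the control siRNA it was 97.1 against 93.6 to 104.3. This sum rests largely on Siglech and is not read as a count of cells. In mouse 1 with the RNY siRNA the log2 level of Siglech was 6.59, against 0.46 for Itgax and -4.72 for Ccr7. The neutrophil genes Mpo and S100a8 were called too. The sum over 9 neutrophil markers, of which 5 were measured, was 4.56 in mouse 1 and 5.39 to 6.09 in the other mice with the RNY siRNA, and 4.17 against 5.39 to 6.33 with the control siRNA.

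Of 8 fibroblast markers 6 were measured and 0 were called between mice, with the lowest adjusted p for Col1a1, a collagen (0.0564). Their sum was 1.13 in mouse 1 and 1.91 or more in the other mice with the RNY siRNA, and 0.857 against 2.02 or more with the control siRNA. Of 8 erythroid and megakaryocyte markers Epor and Pf4 were measured and 6 were well above background on 0 arrays. Of the 2 measured, 0 were called between mice. The sum over the 8 was 61.3 in mouse 1 and 88.3 to 93.3 in the other mice with the RNY siRNA, and 52.5 against 82.5 to 104.3 with the control siRNA. It rests on Epor and Pf4 and is not read as a count of cells. Of 8 lymphocyte markers 4 were measured and 0 were called between mice. Their sum was 9.53 in mouse 1 and 8.92 to 9.02 in the other mice with the RNY siRNA. With the control siRNA it was 10.6 against 7.39 to 9.59. The summed level of the 10 macrophage markers ranged from 1382 to 1638 with the RNY siRNA and from 1403 to 1640 with the control siRNA, and mouse 1 was the highest in each group. Of these markers 0 were called between mice, and their mouse ranges were 0.08 to 0.53. The part of these measures in the Mgll and Lpl differences was not tested, and mouse, culture and slide position cannot be told apart.

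**Figure D2:**
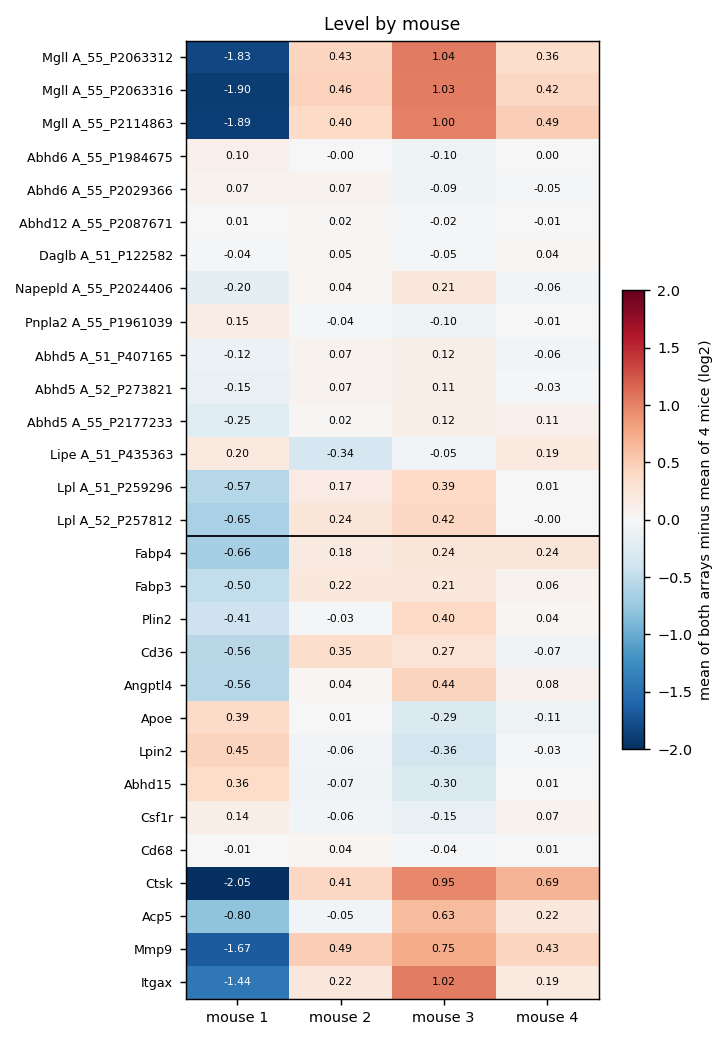
Mean level of both arrays of a mouse minus the mean of the 4 mice (log2, blue lower and red higher) for the 15 tested member probes above the line. Below it are the pathway genes called between mice, except Apoc2, and the chosen markers Csf1r, Cd68, Ctsk, Acp5, Mmp9 and Itgax. The dendritic cell marker Siglech, highest in mouse 1, and the osteoclast markers Dcstamp and Ocstamp, not called between mice, are not shown. Mouse 1 is lowest in Mgll, Lpl, Fabp4, Ctsk, Mmp9 and Itgax and highest in Apoe, Lpin2 and Abhd15, while Abhd12, Daglb and Cd68 stay near 0 in every mouse.

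Among the other enzymes that hydrolyse 2-arachidonoylglycerol, Abhd6 had the highest siRNA difference of the members. Abhd6 A_55_P1984675 (chr14:8889003-8889062, mm9, plus strand, NM_025341) had levels of -3.23, -3.32, -3.32 and -3.21 with the RNY siRNA and -3.57, -3.69, -3.89 and -3.80 with the control siRNA. All RNY arrays lay above all control arrays, as for 1 of 15 member probes (background 1.26%), while 0 of 15 lay with all RNY arrays below (background 1.13%). The difference was 0.47 ± 0.08 (SE, n = 4 arrays a group), a 1.38-fold higher mean, with 0.34, 0.37, 0.56 and 0.59 in mice 1 to 4. The mean of mice 1 and 2, in slide row 1, was 0.35, and that of mice 3 and 4, in row 2, was 0.58.

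This probe was dim, with processed signals of 55.8 to 64.9 with the RNY siRNA and 41.7 to 49.8 with the control siRNA, though well above background on all 8 arrays. Its difference was 0.19 with another background correction (normexp with an offset) and 0.18 in the authors' deposited table of log2 values. Abhd6 A_55_P2029366 (chr14:8888116-8888175), 887 bases away, was well above background on 7 arrays. Its levels were -3.88, -3.70, -3.49 and -3.97 with the RNY siRNA and -3.75, -3.92, -4.45 and -3.89 with the control siRNA, so the groups overlapped. The difference was 0.25 ± 0.17 (SE), higher in 2 of 4 mice, and it was 0.0090 without mouse 3. The probes correlated at 0.58 over the 8 arrays, and their mean difference was 0.36. Neither Abhd6 probe was called between mice, with adjusted p of 0.439 and 0.939.

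Abhd12, a lysophosphatidylserine lipase that also hydrolyses 2-arachidonoylglycerol, was the steadiest member. Its probe (A_55_P2087671, chr2:150660016-150660075, minus strand) had levels of 3.86, 3.86, 3.86 and 3.79 with the RNY siRNA and 3.80, 3.82, 3.75 and 3.84 with the control siRNA. The groups overlapped, the difference was 0.04 ± 0.05 (SE) with a 95% interval from -0.08 to 0.15, and 99.6% of all tested probes had a larger range of mouse means than its 0.03. Faah, the hydrolase of anandamide, was not well above background on any of the 8 arrays on A_52_P223704 (chr4:115669624-115669683). Its other probe, A_55_P2125059 (chr4:115641713-115641772), passed on 1 array, the control array of mouse 4, so no fold is given for Faah.

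Daglb and Napepld make endocannabinoids. Daglb, diacylglycerol lipase beta (A_51_P122582, chr5:144264931-144264990, plus strand), had levels of 4.05, 4.14, 4.06 and 4.08 with the RNY siRNA and 4.02, 4.11, 4.00 and 4.16 with the control siRNA. Its probe is printed on 10 spots of each array, which had an SD of 0.026 to 0.077 within an array. The groups overlapped, with a difference of 0.01 ± 0.06 (SE; 95% interval -0.12 to 0.14). Napepld, the phospholipase D that releases N-acylethanolamines (A_55_P2024406, chr5:21168862-21168921, minus strand), had levels of -0.14, -0.01, 0.28 and 0.01 with the RNY siRNA and -0.12, 0.23, 0.29 and 0.02 with the control siRNA. The groups overlapped, the difference was -0.07 ± 0.12 (SE), and mouse 2 was at -0.25 while the other 3 mice were at -0.01. Neither gene was called between mice, with adjusted p of 0.497 for Daglb and 0.13 for Napepld.

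**Figure D3:**
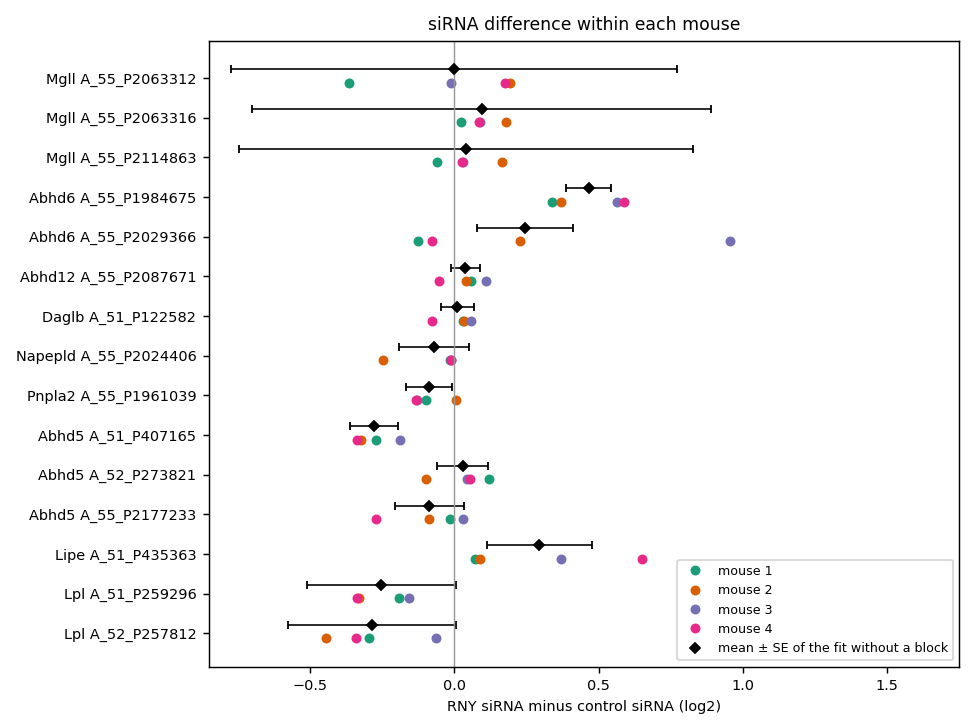
Difference between RNY siRNA and control siRNA (log2) for each tested member probe, as coloured points for the 4 mice and as a black diamond for the mean with its SE from the fit without a block. Abhd6 A_55_P1984675 lies right of 0 in every mouse, from 0.34 to 0.59, both Lpl probes and Abhd5 A_51_P407165 lie left of 0 in every mouse, and the 4 mice of Mgll lie between -0.36 and 0.19, inside its SE.

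Of the intracellular lipolysis genes, Pnpla2, adipose triglyceride lipase (A_55_P1961039, chr7:148645928-148645987, plus strand), had levels of 3.66, 3.53, 3.41 and 3.49 with the RNY siRNA and 3.76, 3.53, 3.54 and 3.62 with the control siRNA. The groups overlapped, with a difference of -0.09 ± 0.08 (SE; 95% interval -0.27 to 0.09). Mouse 1 was highest in each group, the reverse of Mgll and Lpl, but the adjusted p between mice was 0.185.

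Abhd5, the coactivator of Pnpla2 that has no lipase activity of its own, was read by 3 probes, with siRNA differences of -0.28, -0.09 and 0.03. A_51_P407165 (chr9:122289983-122290042, plus strand) had levels of 0.71, 0.87, 0.99 and 0.74 with the RNY siRNA and 0.98, 1.19, 1.17 and 1.07 with the control siRNA. The groups overlapped only where mouse 3 with the RNY siRNA (0.99) passed mouse 1 with the control siRNA (0.98), and the difference was -0.28 ± 0.08 (SE; 95% interval -0.47 to -0.09). A_55_P2177233 (chr9:122288857-122288916), 1126 bases away, differed by -0.09 ± 0.12 (SE), lower in 3 of 4 mice. A_52_P273821 (chr9:122277200-122277259) differed by 0.03 ± 0.09 (SE), higher in 3 of 4 mice. The mean of the 3 probes was -0.11, and the probes correlated at 0.41 to 0.66 over the 8 arrays, so the size and the sign depended on the probe. Between mice their adjusted p was 0.147 to 0.193, with mouse 1 lowest on all 3.

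Lipe, hormone-sensitive lipase (A_51_P435363, chr7:26165828-26165887, minus strand), had levels of -1.49, -2.02, -1.59 and -1.21 with the RNY siRNA and -1.56, -2.11, -1.96 and -1.86 with the control siRNA. It was higher with the RNY siRNA in 4 of 4 mice, by 0.07 and 0.09 in mice 1 and 2 and by 0.37 and 0.65 in mice 3 and 4, and the groups overlapped. The mean difference was 0.29 ± 0.18 (SE; 95% interval -0.13 to 0.72), and it was 0.08 in slide row 1 and 0.51 in slide row 2. The difference was 0.18 without both arrays of mouse 4, 0.17 without its RNY array alone and 0.30 without its control array alone, which is the one with an RNA integrity number of 8. The range of mouse means was 0.54, with an adjusted p of 0.192.

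**Figure D4:**
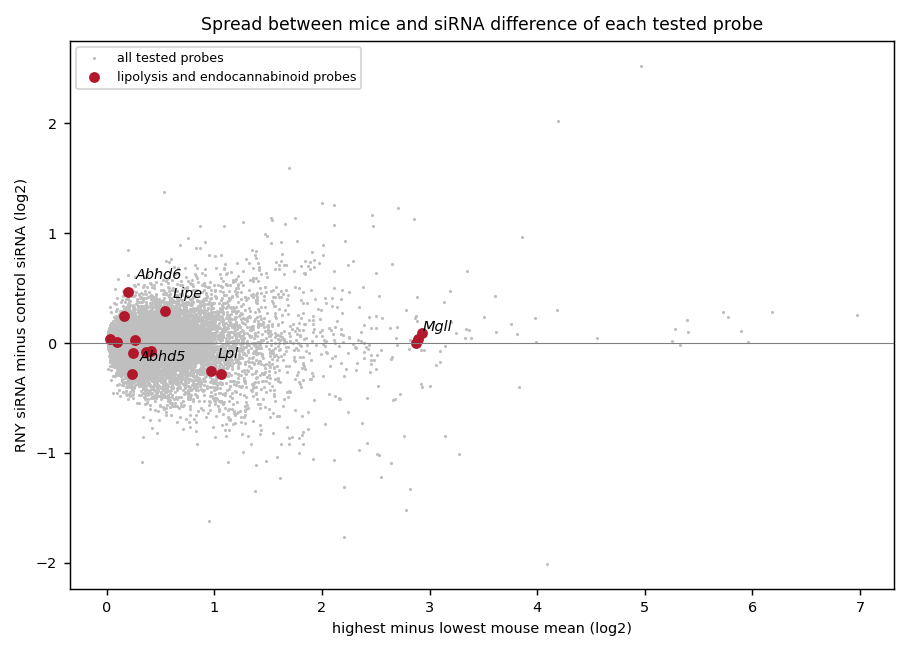
Highest minus lowest mouse mean (x axis, log2) against RNY siRNA minus control siRNA (y axis, log2) for all 26773 tested probes in grey and the 15 member probes in red. The 3 Mgll probes lie at a mouse range of 2.87 to 2.93 and near 0 on the siRNA axis, while Abhd6 A_55_P1984675 lies at a mouse range of 0.20 and the highest siRNA difference of the members, 0.47.

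Over the 8 arrays, which share 4 mice, Lpl varied together with Mgll (Pearson's r = 0.90), Napepld (0.92) and Abhd5 A_55_P2177233 (0.89), Pnpla2 ran against Mgll (-0.86), and Abhd6 A_55_P1984675 was nearest to Lipe (0.65). Among 12712 gene symbols measured, the patterns nearest to Mgll were those of Eef1a2, a translation elongation factor (r = 0.999), Bex1 (0.998) and Spsb4 (0.997). The nearest to Lpl were Prmt7, an arginine methyltransferase (0.992), Lasp1 (0.991) and Myo1e, a class I myosin (0.991). The nearest to Abhd6 A_55_P1984675 were Mbd4, a DNA glycosylase (0.976), Pygo2 (0.966) and Tap1, a subunit of the peptide transporter of antigen presentation (0.961). These are the best of many genes over 8 arrays and are given as a description.

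Genes around the same pathways were read from 6 lists, with 1 probe a gene, the one with the highest mean signal. Of 77 genes measured, limma called 0 between the siRNA groups at an adjusted p under 0.05, and 0 with a fixed block for the mouse. Unadjusted, 1 of 11 other endocannabinoid enzymes and 1 of 13 genes of lipoprotein lipase control lay under 0.05, and 0 in the other 4 lists. The list medians of the siRNA difference lay between -0.04 and 0.03, against 0.0036 over all probes. All RNY arrays lay above all control arrays for 2 of the 77 genes (background 1.26%) and below for 2 (background 1.13%). Between mice 9 genes were called, against 3.04% of all probes. The nearer background, with 1 probe a gene over the whole array, was 904 of 19144.

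Of 8 measured endocannabinoid receptors and carriers, 2 were called between mice, both cytosolic fatty acid binding proteins. Fabp4 had mouse means of 5.06, 5.90, 5.96 and 5.96 (adjusted p = 0.0171) and Fabp3 of 2.06, 2.77, 2.76 and 2.62 (0.0231), with mouse 1 the lowest in both. The cannabinoid receptor Cnr2 was measured on all 8 arrays and differed by -0.02 ± 0.07 (SE) between the siRNA groups, while Cnr1 was well above background on 1 array. Both receptors were picked outside the rule for naming genes, with their values in view. Among 11 other endocannabinoid enzymes 0 were called between mice. Of these, Ddhd2, a lipase of the DDHD family, lay higher on all RNY arrays, with a difference of 0.16.

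Of 13 measured genes of lipoprotein lipase control and related lipases, 4 were called between mice. Cd36, a fatty acid receptor, had mouse means of 4.07, 4.97, 4.89 and 4.55 (adjusted p = 0.0354), and Angptl4, an inhibitor of lipoprotein lipase, had -0.72, -0.12, 0.29 and -0.08 (0.0391). Mouse 1 was the lowest in both, as in Lpl. Apoe, an apolipoprotein that macrophages secrete, was highest in mouse 1 (0.042), and Apoc2, the activating cofactor of lipoprotein lipase, was lowest in mouse 3 (0.0424). The rule for naming genes does not cover Apoc2, which was picked with its values in view. The siRNA difference was below 0 for 11 of the 13, with a list median of -0.04, while 51.6% of all probes had a difference above 0. It was below 0 for 6 of 11 other endocannabinoid enzymes, 4 of 8 receptors and carriers and 7 of 12 lipid droplet genes. For triglyceride synthesis it was 8 of 18 and for other ABHD genes 6 of 16. The lists were chosen with earlier results known, so these counts are a description. Angptl8, a regulator of lipoprotein lipase, lay lower on all RNY arrays, with -2.23, -2.23, -2.30 and -2.41 against -2.03, -2.07, -1.29 and -2.06 with the control siRNA.

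Of 12 measured lipid droplet coats and lipolysis regulators, 1 was called between mice. Plin2, the main lipid droplet coat protein of macrophages, had mouse means of 6.04, 6.42, 6.85 and 6.48 (adjusted p = 0.0376), lowest in mouse 1 and highest in mouse 3. Plin3, another coat protein, lay lower on all RNY arrays, with a difference of -0.05. Of 18 measured triglyceride synthesis genes, Lpin2, a phosphatidate phosphatase, was called between mice (0.029) and was highest in mouse 1, and Acsl4, an acyl-CoA synthetase that prefers arachidonate, lay higher on all RNY arrays, with a difference of 0.10. Of 16 other measured ABHD family genes, Abhd15 was called between mice (0.0405), and it too was highest in mouse 1.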

How the data were processed

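The authors deposited 1 scanner file an array of linear spot intensity, written by Agilent Feature Extraction 10.7.3.1 (protocol GE1_107_Sep09), per the file headers. There the processed intensity is background-subtracted and detrended within the array, with no scaling between arrays, and probe positions are on mm9, per the file headers. RNA (0.2 µg) was labelled with Cy3 for 1-colour arrays, per the labels. The authors' deposited table of log2 values has no stated method, scale or centring, and its column medians were 6.35 to 6.37. Each column correlated at 0.9998 or more with its array's raw median signal (log2), and it served as an alternative.

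Of 62976 spots, 3671 control spots were left out, as were spots with outlier flags, and 0 were saturated. Log2 processed signals minus the array's 75th percentile were averaged over the spots of a probe. A probe was kept if well above background on 4 or more of the 8 arrays. limma 3.58.1 in R 4.3.3 (lmFit, eBayes, two-sided) compared the siRNA groups without a block, and a moderated F test over the mouse terms, with siRNA as a covariate, compared the mice. Benjamini-Hochberg adjustment ran over all 26773 tested probes, with a threshold of 0.05. The procedure was tested on simulated data with independent noise and no difference between mice in the probes raised for the siRNA comparison. These arrays differ between mice, so that simulation does not measure how well siRNA differences are found here. The number of arrays limits the precision. Without a block, p-values between the siRNA groups rest on the spread between these arrays of 4 mice. Those between mice rest on the spread left between the arrays of a mouse after the siRNA term, and they speak for these 4 mice only.

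The series design gives 2 conditions on 4 mice. Deviations from the group means correlated within mice 1 to 4 at 0.587, 0.142, 0.533 and 0.248, and the replicate numbers were therefore read as pairs. The arrays of a replicate number also lay side by side on the slide. The correlations thus do not tell a shared mouse from a shared position, and the test between mice depended on this reading. Alternatives were both blocks, slide row, normexp, quantile and median scaling, the filter, the deposited table, 1 probe a gene, and leaving out arrays or mice. The members and lists were chosen with earlier results of these data known. Named are all members, up to 3 called genes a pathway list and up to 3 more whose siRNA groups do not overlap (exceptions are marked), and the 3 nearest patterns to Abhd6, Mgll and Lpl.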

Additional observations from a re-analysis of the deposited data

Results flagged for a closer look

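Of 30 sets of 4 arrays examined, 1 for each tested member probe and siRNA group, 1 held an array far from the other 3 by Dixon's criterion, which chance alone meets in about 1 of 20 such sets. In Abhd12 the RNY array of mouse 4 had a level of 3.786, and its gap to the nearest of the other RNY arrays was 0.959 of the range of the group.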

How the results depend on the processing

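With the mouse as a replicate block, 0 of 26773 probes were called between the siRNA groups, and with the mouse as a random block 3 were, none of them a member, while the other alternatives gave 0. The count of member probes with a higher mean with the RNY siRNA was 8 of 15 and ranged from 4 to 9 when 1 array was left out (4 without control mouse 1, and 5 without either the RNY array of mouse 2 or that of mouse 3) and from 7 to 8 when a mouse was. Member probes called between mice numbered 5 of 15, against 814 of 26773 over all probes. They numbered 2 of 15 with no filter on dim probes (123 of 55602 over all probes) and 8 of 15 with normexp (4340 of 26773). With 1 probe a gene, where fewer probes were tested, they numbered 2 of 9 (904 of 19144). Without 1 mouse they numbered 0 to 5 (0, 2 and 3 without mice 1, 3 and 4). The called probes added by normexp were of Abhd5, Abhd6 and Napepld. Over all probes, 814 were called between mice, against 2036 in the deposited table, 123 with no filter, 4340 with normexp, 392 within slide rows and 2 to 781 without 1 mouse (2, 124 and 294 without mice 1, 3 and 4). Pathway genes called between mice numbered 9, against 14 in the deposited table, 0 with no filter and 17 with normexp. Where no construction explains it, the cause was not tested. Signal near background limits both Abhd6 probes and leaves Faah without a value.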
